A study of Mus musculus with 6 samples.

Results

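C3H10T1/2 cells with MLL1 knockdown were compared with control cells at day 7 of osteogenic culture, gene by gene. The comparison covered the 15064 genes that had 20 or more counts in at least 1 of the 2 libraries, of 29043 genes with a count anywhere in the series. Genes were kept whether or not they changed with time in control cells. C3H10T1/2 is a mouse line of mesenchymal cells that can be driven toward bone, cartilage or fat. The control line, labelled WT, carried a control short hairpin RNA (shControl), and the knockdown line carried a hairpin against MLL1 (shMLL1), so both lines had a hairpin. Day 7 cells had been kept in osteogenic medium, which adds dexamethasone at 0.1 µM, β-glycerophosphate at 20 mM and ascorbic acid 2-phosphate at 100 µg/ml. Day 0 libraries of the same lines, and libraries of a line with a hairpin against NFIB (shNFIB) at both days, are used only beside this comparison. The shNFIB values of day 7 stand beside shMLL1 values without a comparison of the 2 knockdowns, because both would be set against the same shControl library. Whether a line was a clone or a pool is not given in the sources used here.

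MLL1, the product of Kmt2a, is a histone methyltransferase that methylates histone H3 at lysine 4 near active promoters. It works in a COMPASS-type complex with Wdr5, Rbbp5, Ash2l and Dpy30, and binds menin, the product of Men1. It is best known for keeping Hox genes on in development and for its rearrangements in leukaemia. Osteoblasts and adipocytes arise from common mesenchymal progenitors, with Runx2 and Dlx5 among the regulators of the first and Pparg and Cebpa among those of the second.

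Each line and day had 1 library, so no value has a replicate SD and no test between the 2 conditions was possible at day 7. The shControl day 7 library held 29086652 counts and the shMLL1 day 7 library 21608680, and the 6 libraries of the series ranged from 21608680 to 34774066. Levels are counts per 1000000 counts (CPM) after TMM scaling, and ratios are log2 of shMLL1 over shControl. The bracketed range after a ratio is its 95% interval from counting error alone (exact Clopper-Pearson), which is too narrow for a difference between conditions because it holds no variation between cultures and reads without molecular identifiers need not be independent molecules. A gene is called higher or lower when its fold exceeded 2 and this interval excluded equality. Mitochondrial genes held 7.77% of shControl and 5.71% of shMLL1 counts at day 7.

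The labelled cell type was checked against marker genes. Of 16 mesenchymal markers, 15 passed the count minimum, and the summed level of all 16 was 8300 CPM in shControl against 8400 CPM in shMLL1. Among the 15, 2 were called higher and none lower, 9 had ratios below 0, and the median was -0.207. The near-equal sums held differences in both directions, with Col1a1 at 2526 and 1382 CPM and Col3a1 at 854 and 1871 CPM. Of 10 hematopoietic markers, 3 passed. All 10 summed to 26.6 and 18.9 CPM, almost all of it Cd14 and Cd68, while Ptprc, Adgre1, Cd3e and Hbb-bs were at 0 in both libraries. Endothelial markers summed to 3.54 and 4.59 CPM with Kdr, Tie1 and Cldn5 at 0, and epithelial markers to 1.34 and 0.861 CPM with Epcam, Krt14 and Krt18 at 0. Of 7 neural markers, 3 passed. All 7 summed to 43.5 and 113 CPM, and Rbfox3 and Sox10 were at 0. The neural sum was mostly Map2, a microtubule-associated protein that was called higher at 1.48.

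Kmt2a, the targeted gene, was lower in the shMLL1 library at both days. On GRCm38 it lies on the minus strand of chromosome 9, from 44803355 to 44881296. At day 7 it stood at 66.3 CPM in shControl against 34.8 CPM in shMLL1, a ratio of -0.93 (-1.05 to -0.81), just inside the 2-fold limit and so not called. At day 0 it stood at 74.7 and 30.9 CPM, a ratio of -1.27 (-1.38 to -1.16), which was called. The shNFIB library of day 7 had 94.0 CPM.

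The remaining members of the MLL and COMPASS list stayed within the 2-fold limit, with 1 exception among the 20 measured. Kmt2c, which encodes the related enzyme MLL3, stood at 35.5 CPM in shControl against 83.5 CPM in shMLL1 at day 7, a ratio of 1.23 (1.13 to 1.34). It had been at 46.4 and 29.1 CPM at day 0, with shMLL1 the lower. Kmt2d, which encodes MLL4, had a ratio of 0.57 and Kmt2b, the closest paralog of Kmt2a, one of 0.17, neither called. The cofactor gene Men1 had a ratio of -0.23 at day 7, although it was called lower at day 0 at -1.08. None of 5 genes for H3K4 demethylases (median of 0.0724) or 28 Polycomb genes (median of 0.0933) was called.

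Hox genes, the classical targets of MLL1, were mostly undetected in both lines. Of 39 Hox genes, 27 were at 0 in both day 7 libraries and 9 passed the count minimum. None of the 9 was called, and their ratios ran from -0.972 to 0.774 with a median of -0.332, which is 0.0261 when no count minimum is applied. In the day 0 pair, 2 of the same 9 were called lower and none higher, with a median of -0.569. Of all genes measured at day 0, 8.26% were called lower. Among 9 measured Hox cofactors, Pknox2 alone was called, higher at 1.13.

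Across all genes the 2 libraries were alike for most genes and far apart for a minority. The median ratio was -0.0435, the quartiles were -0.343 and 0.278, and 11120 genes (73.8%) lay within 1.5-fold. There were 946 genes called higher in shMLL1, which is 6.28% of those measured, and 808 called lower, which is 5.36%. In either direction 1754 were called, or 11.6%, and these shares are the background for every group of genes that follows. Past 4-fold there were 525 called genes, and past 16-fold 123. At the limit itself, 537 genes lay between 1.8- and 2-fold and were not called, and 276 called genes lay between 2- and 2.2-fold. Scaling by library size alone moves the median of all genes from -0.0435 to 0.0641, so a list median closer to 0 than that shift has no settled sign.

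**Figure D1:**
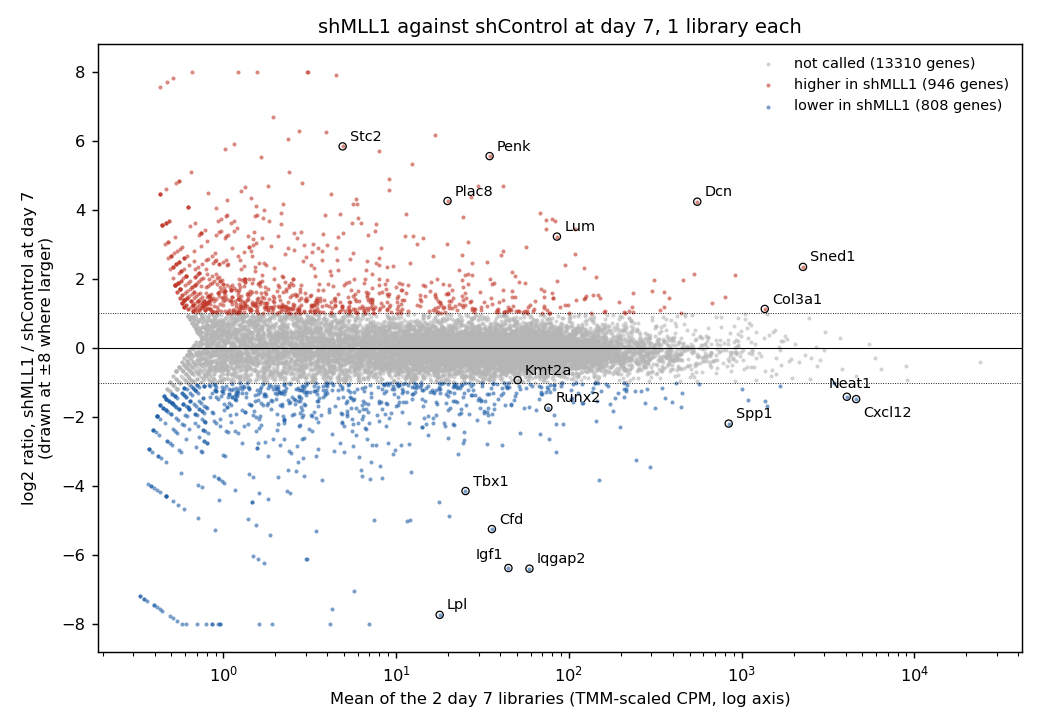
Each point is 1 of the 15064 genes at day 7 (ratios drawn at ±8 where larger), with its mean level in the shControl and shMLL1 libraries on the x axis (log scale, CPM) and its log2 ratio of shMLL1 over shControl on the y axis. The 946 genes called higher and 808 called lower are coloured. Dcn sits far above the dense band at high level, while Igf1 and Iqgap2 sit more than 6 log2 units below it.

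Adipocyte genes had more members called lower than any other of the 47 lists examined. Of 31 measured members, 21 were called lower and 1 higher, against the 5.36% and 6.28% of all genes, and the median ratio was -2.37 with 28 of 31 below 0. Setting the members at 0 counts to their bound could not move this median, because every such bound lies below it. In bulk RNA, fewer cells of a type and less RNA per cell cannot be told apart, and this holds for every group below.

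Several of these adipocyte genes had few or no counts at day 0 and were far higher in shControl than in shMLL1 at day 7. Cfd, which encodes the secreted protease adipsin (chromosome 10, 79890853 to 79892655, plus strand), had no count in either line at day 0. At day 7 it stood at 69.8 CPM in shControl against 1.84 CPM in shMLL1, a ratio of -5.24 (-5.70 to -4.82). Lpl, the lipoprotein lipase that takes fatty acids from circulating fat, stood at 35.6 CPM in shControl against 0.164 CPM in shMLL1, a ratio of -7.72 (-9.64 to -6.40). Both were also low in the shNFIB library of that day, at 0.744 CPM each.

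Some genes of the lipid droplet were called lower too. Cidec, a droplet protein that promotes droplet growth, had 22.3 CPM in shControl against 0.697 CPM in shMLL1, with a ratio of -4.99 (-5.79 to -4.31). Plin1, perilipin, which coats the droplet and gates lipolysis, had 15.5 and 1.15 CPM, with a ratio of -3.75 (-4.36 to -3.20). Neither gene had a count at day 0. Plin4, another perilipin and more abundant, stood at 652 CPM in shControl against 536 CPM in shMLL1, a ratio of -0.28 that was not called. Apoe, a lipid carrier of lipoproteins, had 133 CPM in shControl against 21.3 CPM in shMLL1, with a ratio of -2.64 (-2.78 to -2.51), and at day 0 had been called higher at 1.06.

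Some members had no count in the shMLL1 library. Thrsp, a regulator of fatty acid synthesis, had 251 counts in shControl and 0 in shMLL1 and was at least 67.0-fold lower, taking the floor as 3 counts in the shMLL1 library. Retn, the hormone resistin, had 117 and 0 counts and was at least 31.2-fold lower, and it had 0 counts in shNFIB at day 7 too. Aqp7, a glycerol channel, had 43 and 0 counts and was at least 11.5-fold lower, while Car3, a carbonic anhydrase abundant in fat, had 21 and 0 and was at least 5.61-fold lower.

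Other adipocyte genes were not called, or were called higher. Fabp4, a fatty acid binding protein widely used as an adipocyte marker, stood at 4.63 CPM in shControl against 4.84 CPM in shMLL1, a ratio of 0.06 (-0.30 to 0.43). Adipoq, the hormone adiponectin, had 0 counts in both day 7 libraries. Lpin1, which encodes a phosphatidate phosphatase, was the member called higher, with 46.4 and 93.3 CPM and a ratio of 1.01 (0.91 to 1.10).

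Among 19 measured regulators of adipogenesis, 4 were called lower and none higher, with a median of -0.193. Cebpa, a transcription factor of adipocyte differentiation, stood at 10.3 CPM in shControl against 2.46 CPM in shMLL1 at day 7, a ratio of -2.06 (-2.49 to -1.66), and had been called lower at day 0 at -2.88. Pparg, the nuclear receptor that drives adipogenesis, stood at 42.0 and 20.9 CPM, a ratio of -1.01 (-1.16 to -0.86). Pparg sat at the 2-fold limit and was not called with library size alone, at -0.90. The shNFIB library of day 7 held more Pparg than either, at 84.2 CPM. Zbtb16, a zinc finger factor induced by glucocorticoids, had no count at day 0 and stood at 42.5 and 6.31 CPM at day 7, a ratio of -2.75 (-3.00 to -2.51).

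Genes of fatty acid and sterol synthesis leaned the same way with smaller ratios. Of 33 measured, 9 were called lower and none higher, 31 had ratios below 0, and the median was -0.434. Scd1, a fatty acid desaturase, stood at 142 CPM in shControl against 69.1 CPM in shMLL1, a ratio of -1.04 (-1.12 to -0.96). At day 0 the same list had 13 members called lower, none higher and a median of -0.972.

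**Figure D2:**
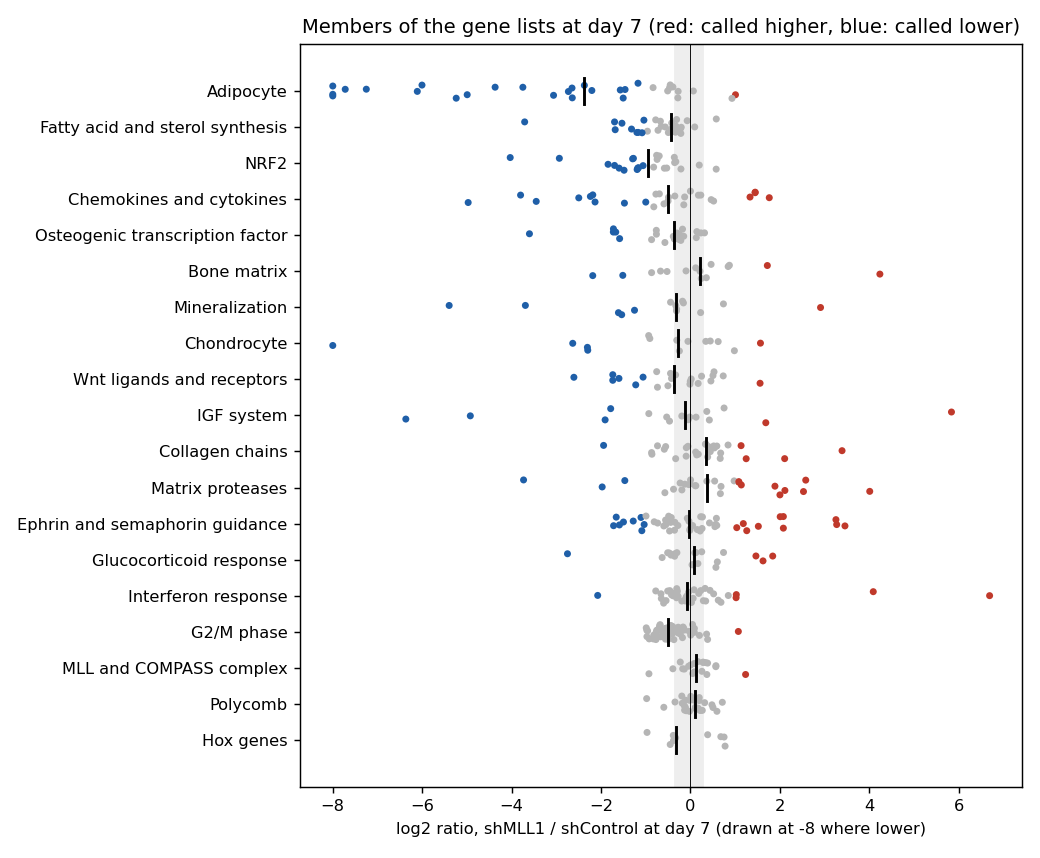
Each point is a gene of the list named on the y axis, with its day 7 log2 ratio of shMLL1 over shControl on the x axis (drawn at -8 where lower). Red points were called higher, blue ones lower and grey ones not called, the upright marks are list medians and the shaded band spans the quartiles of all genes. The adipocyte list has its median at -2.37 and the NRF2 list at -0.942, while collagen chains and matrix proteases lie to the right of 0 at 0.339 and 0.365.

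Osteogenic transcription factors were lower or not called. Of 21 measured, 5 were called lower and none higher, with a median of -0.359. Runx2, the master regulator of osteoblasts, stood at 117 CPM in shControl against 35.3 CPM in shMLL1 at day 7, a ratio of -1.73 (-1.83 to -1.62), whereas the lines had been near equal at day 0 with 32.8 and 32.2 CPM. Dlx5, a homeobox factor of bone formation, had a ratio of -1.72 at day 7 and -1.66 at day 0. Its day 7 levels were 52.5 CPM in shControl, 15.9 CPM in shMLL1 and 3.69 CPM in shNFIB. Runx2 stood at 30.4 CPM in shNFIB at day 7. Reads of Runx2 cannot be assigned to a strand here, and the gene overlaps Supt3 and its antisense transcripts.

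Other members called lower differed in when the gap appeared. Twist2, a basic helix-loop-helix factor of mesenchymal cells, stood at 22.4 CPM in shControl against 1.84 CPM in shMLL1, a ratio of -3.60 (-4.07 to -3.17), and at -1.11 at day 0. In shNFIB at day 7 it stood at 3.11 CPM. Fosl1, a subunit of AP-1, was at -1.58 at day 7 and was called higher at day 0, at 1.02. Sp7, Msx2 and Bglap had under 20 counts in both day 7 libraries and were not compared.

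Of 15 bone matrix genes measured, 2 were called higher and 2 lower, 9 had ratios above 0, and the median was 0.213, or -0.0503 with no count minimum. The members called higher were Dcn, whose values follow with the proteoglycans, and Thbs1, a thrombospondin, at 1.72. Spp1, the bone matrix protein osteopontin, stood at 1381 CPM in shControl against 303 CPM in shMLL1, a ratio of -2.19 (-2.22 to -2.15). The shNFIB library of day 7 held 226 CPM of Spp1. Mgp, an inhibitor of calcification and the other member called lower, stood at 1624 and 569 CPM, a ratio of -1.51 (-1.54 to -1.49). Col1a1, the main chain of type I collagen, stood at 2526 and 1382 CPM, a ratio of -0.87 that was not called.

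Of 14 measured mineralization genes, 5 were called lower and 1 higher. Pth1r, the receptor for parathyroid hormone, stood at 11.7 CPM in shControl against 0.902 CPM in shMLL1, a ratio of -3.69 (-4.39 to -3.08), and at -3.00 at day 0. Enpp1, which makes pyrophosphate, had a ratio of -1.54. Alpl, the alkaline phosphatase that removes pyrophosphate, had 111 counts in shControl and 2 in shMLL1, a ratio of -5.40 (-8.54 to -3.59), and 215 counts in shNFIB. Phex, an endopeptidase of phosphate balance, was the member called higher, at 0.82 and 6.19 CPM with a ratio of 2.91 (2.30 to 3.59).

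Cartilage collagen genes were lower in shMLL1 at both days. Col2a1, the chain of type II collagen, stood at 223 CPM in shControl against 12 CPM in shMLL1 at day 0, and at 11.0 and 2.21 CPM at day 7, a ratio of -2.31 (-2.75 to -1.89). Col9a1, a type IX collagen chain, had 58 and 0 counts at day 7 and was at least 15.5-fold lower. Of 14 chondrocyte genes measured at day 7, 4 were called lower and 1 higher, the transcription factor gene Sox5 at 1.56, and at day 0 the counts were 7 and 1.

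In the extracellular matrix, a pair of neighbouring genes for small leucine-rich proteoglycans was called higher. Dcn, decorin, which binds collagen fibrils and lies on the plus strand of chromosome 10 from 97479609 to 97518143, stood at 55.8 CPM in shControl against 1052 CPM in shMLL1, a ratio of 4.24 (4.17 to 4.31). Lum, lumican, which follows it on the same strand from 97565128 to 97572703, stood at 16.5 and 154 CPM, a ratio of 3.23 (3.09 to 3.36). Dcn was also called higher at day 0, at 1.52, but Lum had 0.657 and 0.497 CPM there and was not called. The shNFIB library of day 7 held 266 CPM of Dcn and 17.5 CPM of Lum.

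Other matrix components were called higher at day 7 and not at day 0. Col3a1, the chain of type III collagen, stood at 854 CPM in shControl against 1871 CPM in shMLL1, a ratio of 1.13 (1.11 to 1.15), after 1980 and 2013 CPM at day 0. Vcan, the large proteoglycan versican, stood at 126 and 492 CPM, a ratio of 1.97 (1.91 to 2.02), after 205 and 202 CPM. In shControl both genes had less at day 7 than at day 0, and in shMLL1 Vcan had more.

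Sned1, a secreted matrix protein gene, was called in opposite directions at the 2 days. It stood at 745 CPM in shControl against 3792 CPM in shMLL1 at day 7, a ratio of 2.35 (2.33 to 2.37), and at 69.9 and 12.3 CPM at day 0, a ratio of -2.51. Of 28 collagen chain genes, 4 were called higher and 1 lower, with a median of 0.339. The member called lower was Col8a2, a chain of type VIII collagen, at -1.94, which was at -3.95 at day 0.

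Matrix proteases and their inhibitors had 9 members called higher and 3 lower of 27 measured, with a median of 0.365. Adamts1, which cleaves versican and aggrecan, stood at 345 CPM in shControl against 1493 CPM in shMLL1, a ratio of 2.11 (2.08 to 2.14). Adamts9, of the same family, stood at 23.6 and 87.2 CPM, a ratio of 1.89 (1.77 to 2.01), and Adamts6 at 2.00 and 11.6 CPM, a ratio of 2.53 (2.13 to 2.95). Mmp3, stromelysin, stood at 3.18 and 12.7 CPM with a ratio of 2.00, while the shNFIB library held 160 CPM. The members called lower were Timp4, Adamts8 and Adamts15, at -1.97, -3.73 and -1.47.

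Of 18 integrin genes 4 were called higher and 1 lower, led by Itgb8, the beta chain of an integrin that activates TGF-β, at 10.2 and 57.2 CPM and a ratio of 2.49 (2.31 to 2.68). Genes of ephrin, semaphorin, slit and plexin guidance were called often in both directions, with 10 higher and 8 lower of 46 and a median of -0.0248 whose sign turns with library size alone (0.0829). Sema3c, a secreted semaphorin, stood at 18.2 CPM in shControl against 200 CPM in shMLL1, a ratio of 3.45 (3.33 to 3.58), after 150 and 234 CPM at day 0. The ligand Slit3 stood at 2.13 and 20.4 CPM, a ratio of 3.25 (2.88 to 3.65), and Robo2, a receptor for slits, at 1.28 and 12.4 CPM, a ratio of 3.27 (2.79 to 3.79). Plxna3, a semaphorin receptor on chromosome X, had a ratio of 1.18 (1.07 to 1.29).

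In the insulin-like growth factor (IGF) system both ligands were low in shMLL1. Igf1, on chromosome 10 from 87858265 to 87937042, stood at 88.3 CPM in shControl against 1.07 CPM in shMLL1, a ratio of -6.37 (-6.99 to -5.82), after 33.9 and 30.8 CPM at day 0. It was also low in the shNFIB library of day 7, at 1.15 CPM. Igf2 had 42 counts in shControl and 1 in shMLL1, a ratio of -4.92 (-10.41 to -2.51). The genes for the binding proteins Igfbp3 and Igfbp5 were called lower at -1.91 and -1.78. Those called higher were Stc2, an inhibitor of the pappalysin proteases, at 5.84 (4.63 to 7.51), and Pappa, the pappalysin that releases IGF from its binding proteins, at 1.68 (1.41 to 1.96). Stc2 had 5 counts in shControl and 235 in shMLL1, and was called higher at day 0 too, at 3.25. The remaining 10 of the 16 measured members were not called.

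**Figure D3:**
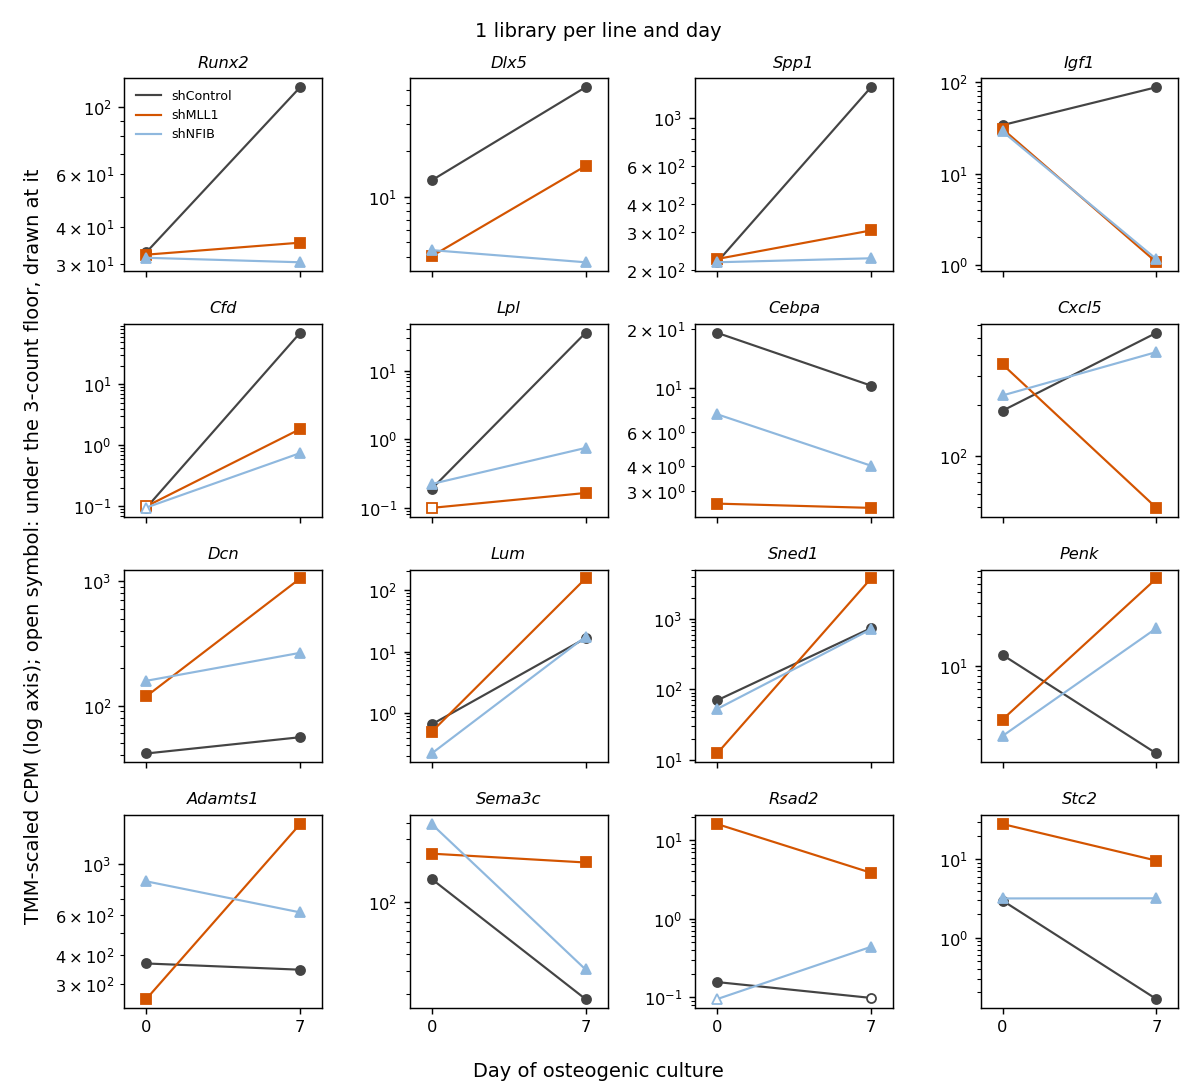
The level of 16 genes in the 6 libraries, in CPM on a log y axis, against day 0 and day 7 on the x axis, with 1 line for each of shControl, shMLL1 and shNFIB and open symbols for levels under the floor of 3 counts. Igf1 and Runx2 have near-equal levels in shControl and shMLL1 at day 0 and separate at day 7, while Cebpa is apart at both days and Sned1 changes order.

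Of 22 Wnt ligand and receptor genes, 6 were called lower and 1 higher, with a median of -0.379. Rspo2, a secreted enhancer of Wnt signalling, stood at 486 CPM in shControl against 146 CPM in shMLL1, a ratio of -1.74 (-1.79 to -1.69). Its relative Rspo3 had the same ratio of -1.74 at day 7 and -2.75 at day 0. The receptor gene Fzd9 stood at 5.02 and 0.82 CPM, a ratio of -2.61 (-3.37 to -1.94), and the receptor called higher was Fzd3 at 1.56. Ctnnb1, the gene for β-catenin, was at -0.93 and not called. Of 15 Wnt inhibitors and targets, 4 were called lower, among them Sfrp2 at -1.87 and Frzb at -1.76, both secreted Wnt antagonists, and Apcdd1, another antagonist, was called higher at 2.65.

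Some genes of other signalling pathways were called as well. Of 21 TGF-β genes 3 were called lower and none higher, and Ltbp2, a matrix protein related to the binding proteins of latent TGF-β, stood at 440 CPM in shControl against 46.4 CPM in shMLL1, a ratio of -3.25 (-3.34 to -3.16), with -2.28 at day 0. Of 15 FGF genes 3 were called lower and 1 higher. The receptor gene Fgfr3 was at -2.12 and Fgfr2 at -1.43, and Fgfr2 is uncertain because its annotated span covers many other genes on the opposite strand. The feedback inhibitor Spry1 was at -2.17 at day 7 and called higher at 2.43 at day 0.

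In the BMP pathway, 2 of 19 genes were called higher, the antagonists Chrd at 1.13 and Grem1 at 1.10, and 4 lower, among them the inhibitory Smads Smad6 at -1.33 and Smad7 at -1.15. The Notch target Hes1, at -1.62, was the call among 10 Notch genes, and the co-receptor Boc, at -1.58, that among 8 Hedgehog genes. Both shares are near the 11.6% of all genes called. None of 19 YAP and TAZ targets was called.

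Chemokine and cytokine genes recruit and signal to immune cells. Of 27 chemokine and cytokine genes, 9 were called lower and 4 higher, with a median of -0.502, and the list's summed level was 9220 CPM in shControl, 3840 CPM in shMLL1 and 9330 CPM in shNFIB. Cxcl12, the stromal chemokine that retains hematopoietic cells, made up most of the sum in each of these libraries, with 6539 CPM in shNFIB. It stood at 6781 CPM in shControl against 2435 CPM in shMLL1, a ratio of -1.48 (-1.49 to -1.46), and was at -1.51 at day 0. Cxcl5, a neutrophil attractant, stood at 540 and 49.4 CPM, a ratio of -3.45 (-3.54 to -3.37).

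The inflammatory chemokines Cxcl1 and Ccl2 changed order between days. Cxcl1 stood at 116 CPM in shControl against 20.4 CPM in shMLL1 at day 7, a ratio of -2.50 (-2.64 to -2.36), but at 104 and 316 CPM at day 0, a ratio of 1.6. Ccl2, a monocyte attractant, stood at 151 and 33.2 CPM at day 7, a ratio of -2.19 (-2.29 to -2.08), and at 117 and 561 CPM at day 0, a ratio of 2.26. The members called higher at day 7 were Il33, its receptor Il1rl1, Il6ra and the scavenger receptor Ackr3, at 1.76, 1.45, 1.33 and 1.45. Il1rn, the interleukin-1 receptor antagonist, is named for its CPM difference and stood at 2125 and 667 CPM, a ratio of -1.67 (-1.70 to -1.65).

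Complement genes were called in both directions, 4 lower and 2 higher of 15. The central component C3 stood at 2270 CPM in shControl against 1054 CPM in shMLL1, a ratio of -1.11 (-1.13 to -1.09), and lost its call with library size alone at -0.999. C4b stood at 329 and 67.3 CPM, a ratio of -2.29 (-2.37 to -2.21). Cd55, an inhibitor on the cell surface, was called higher at 3.20. Clusterin, the product of Clu and also an inhibitor, was called lower at -1.56.

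Interferon-response genes, which are induced by antiviral signalling, had different counts of calls at the 2 days. At day 0, 29 of 43 interferon-response genes were called higher and 1 lower, with a median of 1.43, against 8.5% higher and 8.26% lower among the 14366 genes measured then. At day 7 the counts were 4 and 1, with a median of -0.0834 that turns sign with library size alone (0.0242). The list summed to 2590 CPM in shControl against 6310 CPM in shMLL1 at day 0, and to 2950 and 2550 CPM at day 7, with 5910 CPM in shNFIB at day 7. The difference between the days was not tested.

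Isg15 and Rsad2 show members that were called at day 0 alone and at both days. Isg15, a ubiquitin-like protein induced by interferon, stood at 38.1 CPM in shControl against 492 CPM in shMLL1 at day 0, and at 32.0 and 40.6 CPM at day 7, a ratio of 0.34 that was not called. Rsad2, the antiviral protein viperin, was higher at both days, with 5 and 485 counts at day 0 and 1 and 94 counts at day 7, a ratio of 6.69 (4.36 to 12.19). Psmb8, a subunit of the immunoproteasome, was the member called lower, at -2.08.

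Targets of NRF2, the transcription factor of the oxidative stress response, included many genes called lower in shMLL1 at day 7. Of 24 measured, 12 were called lower and none higher, 22 had ratios below 0, and the median was -0.942. At day 0 the counts were 2 lower and 3 higher with a median of 0.0534. The summed level was 5340 CPM in shControl, 3050 CPM in shMLL1 and 8380 CPM in shNFIB.

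Among the 12 called lower was Gclm, a subunit of the enzyme that limits glutathione synthesis. It stood at 52.2 CPM in shControl against 14.5 CPM in shMLL1, a ratio of -1.84 (-2.01 to -1.68). Hmox1, haem oxygenase, stood at 192 and 79.2 CPM, a ratio of -1.28 (-1.35 to -1.20), with 684 CPM in shNFIB. Txnrd1, thioredoxin reductase, stood at 191 and 85.4 CPM, a ratio of -1.16 (-1.24 to -1.09), with 455 CPM in shNFIB.

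The glutathione S-transferase gene Gstm1 stood at 412 CPM in shControl against 136 CPM in shMLL1, a ratio of -1.60 (-1.65 to -1.54), and it belongs to a family of close paralogs between which reads can be misassigned. Me1, malic enzyme, was at -1.70 and is also a member of the lipid synthesis list. Ftl1, the ferritin light chain, is not on the NRF2 list and is named for its CPM difference. It stood at 4608 and 2267 CPM, a ratio of -1.02 (-1.04 to -1.01), and was not called with library size alone at -0.92. Gpx4, a peroxidase that protects membrane lipids, is named for the same reason and stood at 2039 and 711 CPM, a ratio of -1.52 (-1.54 to -1.50). The shNFIB library of day 7 held 491 CPM of Gpx4.

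Genes induced by glucocorticoid, which the medium supplies as dexamethasone, had 3 of 20 members called higher and 1 lower, with a median of 0.0802. Tsc22d3, the anti-inflammatory protein GILZ, stood at 428 CPM in shControl against 1181 CPM in shMLL1, a ratio of 1.46 (1.43 to 1.49). Errfi1, an inhibitor of the EGF receptor, stood at 175 and 539 CPM, a ratio of 1.62 (1.58 to 1.67). Fkbp5, a chaperone of the receptor, was at 0.60 and not called, and the member called lower was Zbtb16. Among 12 retinoid genes 1 was called, Aldh1a7, an aldehyde dehydrogenase gene close to Aldh1a1, at 187 and 729 CPM and a ratio of 1.96 (1.92 to 2.01).

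Cell cycle genes had ratios mostly below 0 and were seldom called. Of 55 genes of G2/M phase 47 had ratios below 0 and the median was -0.498, but the single call was Tmpo, a nuclear envelope protein, higher at 1.07. Of 44 S phase genes 3 were called lower, Fen1, Gmnn and Ccne1, with a median of -0.331. Both medians are larger in size than the shift between scalings.

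Metabolic and imprinted lists had calls in both directions, but the glycolysis and ATF4 counts are near the 11.6% of all genes called. Of 30 glycolysis and hypoxia genes 2 were called higher, led by Car9 at 1.39, and 2 lower, led by Pfkfb3 at -1.32. Of 31 ATF4 and amino acid genes 1 was called higher and 2 lower, including Chac1, which degrades glutathione, at -1.97. Of 15 imprinted genes 4 were called in each direction, and Dcn and Igf2 are members. Dlk1, a preadipocyte factor, had 98 counts in shControl and 0 in shMLL1 and was at least 26.2-fold lower, while Ndn, the growth suppressor necdin, was at -2.52.

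Of 26 listed noncoding RNAs measured, 1 was called lower and 1 higher, a smaller share than the 11.6% of all genes. Neat1, the scaffold of nuclear paraspeckles, stood at 5914 CPM in shControl against 2226 CPM in shMLL1, a ratio of -1.41 (-1.42 to -1.40), after 376 and 377 CPM at day 0. Airn, called higher at 1.57, overlaps Igf2r on the opposite strand, so its reads cannot be told from those of that gene here.

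Ranked by ratio with 20 or more counts in both libraries, the genes most raised came from several functions. Penk, the precursor of the enkephalin opioids, stood at 1.44 CPM in shControl against 68.1 CPM in shMLL1, a ratio of 5.56 (5.13 to 6.03), though it was called lower at day 0 at -2.05. Arhgap20, a GTPase-activating protein, stood at 2.2 and 57.2 CPM, a ratio of 4.70 (4.35 to 5.08). Serpina3m, a protease inhibitor in a cluster of near-identical genes and therefore uncertain, stood at 3.12 and 80.0 CPM, a ratio of 4.68 (4.39 to 5.00).

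An enzyme gene and an acute-phase gene were also among those called higher. Fmo2, a flavin monooxygenase on chromosome 1, stood at 2.49 CPM in shControl against 52.0 CPM in shMLL1, a ratio of 4.38 (4.05 to 4.74). It was high in shNFIB at day 7 as well, at 62.3 CPM. Plac8 stood at 1.97 and 37.7 CPM, a ratio of 4.26 (3.88 to 4.66), and was already apart at day 0 at 6.07. Orm3, an acute-phase gene, stood at 8.43 and 127 CPM, a ratio of 3.91, with 8.32 CPM in shNFIB.

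Some genes had counts in shMLL1 and none in shControl at day 7. Ptchd1, a patched-domain membrane protein on chromosome X, had 0 counts in shControl and 150 in shMLL1 and was at least 62.5-fold higher. Ppef1, a calcium-regulated phosphatase also on chromosome X, had 0 and 149 counts and was at least 62.0-fold higher. Both had counts in shControl at day 0, 25 and 23, and in shNFIB at day 7, 30 and 63. Of the genes called higher, 47 had at most 3 counts in shControl, and of those called lower, 82 had at most 3 in shMLL1.

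Ranked by ratio with 20 or more counts in both libraries, the genes most lowered were also mixed. Iqgap2, a scaffold protein of the cytoskeleton, stood at 117 CPM in shControl against 1.39 CPM in shMLL1, a ratio of -6.38 (-6.92 to -5.90), with 62.5 CPM in shNFIB. Tspan18, a tetraspanin, stood at 39.1 and 1.35 CPM, a ratio of -4.85 (-5.40 to -4.36). Cntfr, the receptor for ciliary neurotrophic factor, had under 20 counts in shMLL1 and so was outside this ranking. It stood at 23.3 and 0.738 CPM, a ratio of -4.97 (-5.74 to -4.31). Tbx1, a T-box factor of pharyngeal and heart development, stood at 47.7 and 2.70 CPM, a ratio of -4.14 (-4.52 to -3.78), with 28.1 CPM in shNFIB. Gabbr1, a subunit of the GABA-B receptor, stood at 279 and 20.0 CPM, a ratio of -3.80 (-3.94 to -3.67), with 10.4 CPM in shNFIB.

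Genes that shControl cells held at one level between day 0 and day 7 were also among those called. Of 3164 genes within 1.2-fold between the shControl days, 99 (3.13%) were called higher and 78 (2.47%) lower at day 7. These shares are below the 6.28% and 5.36% of all genes measured. The flat genes were chosen with the shControl day 7 library, which is also in the ratio. The lower shares are therefore not a result about flat genes. Megf9, a transmembrane protein with EGF-like domains, stood at 31.6 CPM at day 0 and 30.4 CPM at day 7 in shControl, and at 11.9 and 159 CPM in shMLL1, a day 7 ratio of 2.39 (2.29 to 2.49). Pnpt1, a mitochondrial polynucleotide phosphorylase, stood at 45.5 and 40.8 CPM in shControl and at 115 and 204 CPM in shMLL1, a day 7 ratio of 2.32 (2.23 to 2.41). Pgm5, a muscle protein of cell adhesions, stood at 130 and 139 CPM in shControl and at 6.36 and 30.4 CPM in shMLL1, a day 7 ratio of -2.19 (-2.30 to -2.08).

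The day 0 pair of libraries shares no library with the day 7 pair. Of the genes called higher at day 7, 600 were also measured at day 0, where 430 (71.7%) had ratios above 0, 243 (40.5%) were called higher and 45 (7.5%) lower, with a median of 0.699. Among all 13633 genes measured at both days, 45.1% were above 0 and 6.66% called higher at day 0. Of the genes called lower at day 7, 609 were measured at day 0, where 446 (73.2%) had ratios below 0, 266 (43.7%) were called lower and 55 (9.03%) higher, with a median of -0.797, beside 54.9% below 0 and 7.8% called lower among all genes. The same 2 cell lines gave both pairs, so these counts bear on the lines and do not replace replicate cultures.

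**Figure D4:**
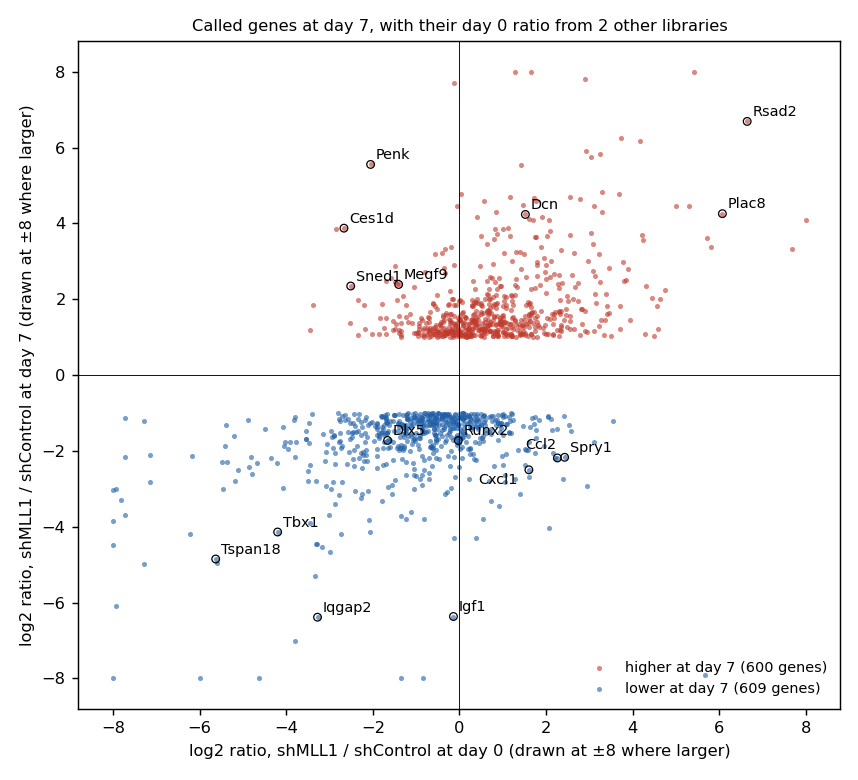
The log2 ratio of shMLL1 over shControl at day 0 on the x axis against that at day 7 on the y axis, for the 600 genes called higher and 609 called lower at day 7 that were measured at both days (drawn at ±8 where larger). Tbx1 and Tspan18 lie at the lower left, below -4 on both axes, while Ccl2 and Cxcl1 lie at the lower right and Penk and Sned1 at the upper left.

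Treating the 2 days as the repeats of each line gave a test with 2 residual degrees of freedom over 16742 genes (edgeR quasi-likelihood test on all 6 libraries with day as a term, Benjamini-Hochberg adjustment at 5%). It called 2 genes higher (0.0119%) and 3 lower (0.0179%) in shMLL1. Those lower were Tbx1 at -4.12 (SE 0.35), Tspan18, and Naalad2, a glutamate carboxypeptidase relative, each with an adjusted p of 0.0295. Naalad2 stood at 73.1 and 11.1 CPM at day 0 and at 71.5 and 10.2 CPM at day 7. Among those higher was the predicted gene Gm2115, with an adjusted p of 0.0295. Without adjustment 694 genes were higher and 846 lower at p under 0.05, and the DESeq2 Wald test called 182 and 244. Leaving out any 1 of the 6 libraries raised the edgeR counts, to between 10 (without shControl at day 7) and 375 (without shMLL1 at day 7) higher and between 32 and 345 lower. For Kmt2a this edgeR test gave -1.06 (SE 0.23) and an adjusted p of 0.154.

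Calls were spread unevenly over gene types. At day 7 the 12350 protein-coding genes had 4.87% called higher and 5.33% called lower. Antisense genes were called higher in 14.3% of cases, lincRNAs in 15% and genes of the TEC class, which await experimental support, in 25.3%, with 6.25%, 7.16% and 5.68% called lower. The same types were also high at day 0, with 23.3%, 28.1% and 20.9% called higher beside 6.33% of protein-coding genes. Among protein-coding genes the lowest quartile group by mean abundance had 13.2% called higher and 13.6% lower, and the highest group 1.88% and 2.33%. Of called genes 41.2% overlapped a gene on the other strand, against 44.9% of all measured genes.

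Median ratios also moved with gene length and base composition. In quartile groups of exon length, from shortest to longest, the protein-coding median at day 7 was -0.191, -0.123, -0.0364 and 0.111. At day 0 the order was opposite, at 0.0978, -0.0882, -0.162 and -0.246. In quartile groups of GC content, from lowest to highest, the day 7 medians were 0.0763, -0.0164, -0.102 and -0.2, and the day 0 medians had the same order, at 0.0488, -0.0845, -0.141 and -0.282. The part of length and GC content in the ratios above was not tested.

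By chromosome, protein-coding genes had their lowest day 7 medians on chromosomes 17, 14 and 10, at -0.249, -0.235 and -0.228. The same chromosomes had medians of -0.241, -0.272 and -0.227 at day 0. Chromosome 1 stood at 0.128 at day 7 and -0.0136 at day 0. On chromosome X 11.9% of 394 protein-coding genes were called higher at day 7 and 6.35% at day 0.

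**Figure D5:**
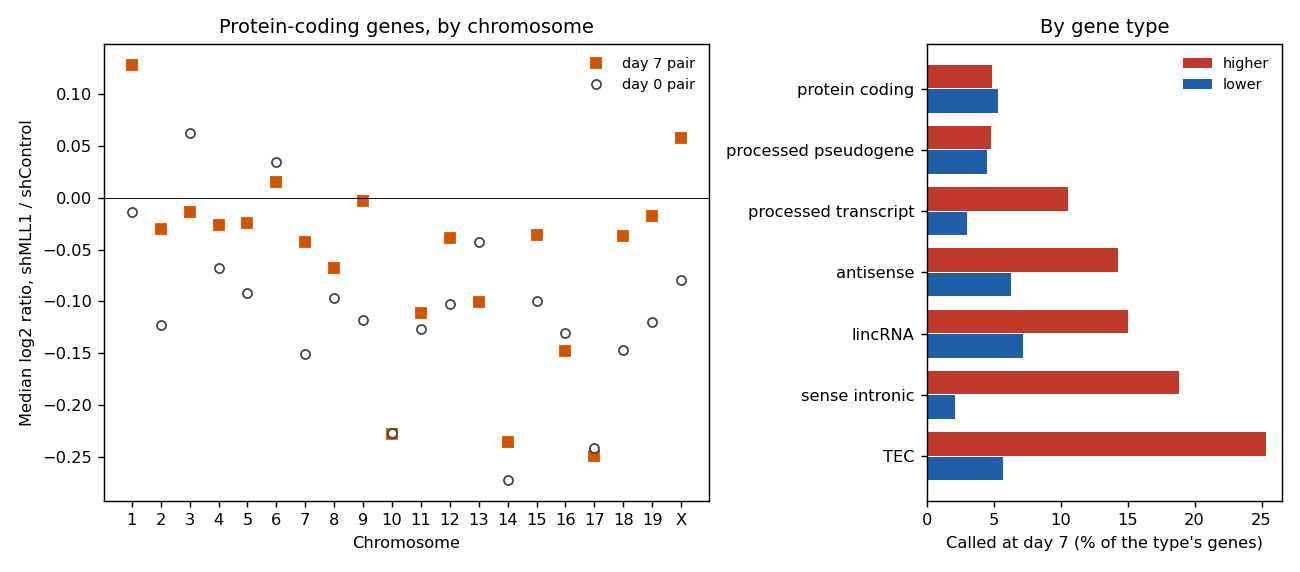
Left, median log2 ratio of shMLL1 over shControl of protein-coding genes on the y axis for each chromosome on the x axis, at day 7 (squares) and day 0 (circles); right, the percent of genes called higher and lower at day 7 for each gene type. Chromosomes 10, 14 and 17 lie below -0.2 at both days, and the TEC class has the longest bar of the 7 types drawn, at 25.3% called higher.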

How the data were processed

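RNA-seq of 6 C3H10T1/2 libraries was used, 1 for each line and day. The authors deposited a table of raw read counts per gene. Per the submitters' processing notes, Trimmomatic 0.39, HISAT2 2.2.1, SAMtools 1.12 and HTSeq 0.11.1 were used. Per the study's methods, reads were aligned to GRCm38, poorly mapped reads and PCR duplicates were discarded before counting, and no molecular identifiers are mentioned. Discarding duplicates by position can lower the counts of abundant transcripts. The annotation release and the strand setting of the counting are not given in the sources used here. The table held 55401 genes, with 0 entries that name no gene and 0 columns left unused. Positions and gene types were taken from GENCODE M21 (GRCm38) for 55141 genes.

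Library sizes were scaled by TMM over all 6 libraries in edgeR 4.0.16 (R 4.3.3), and genes with 20 or more counts in 1 of the 2 day 7 libraries were kept. With 1 library a group, a gene was called past 2-fold where its exact 95% counting interval excluded equality. A fold against 0 counts used a floor of 3 counts, equal at day 7 to 0.0984 CPM for shControl and to 0.123 CPM for shMLL1. A quasi-likelihood model over both days and 3 lines was a second test, with DESeq2 1.42.0 as its alternative. Procedures were tested on simulated data. With counting error alone, the 95% interval held the simulated ratio for 95.3% of genes, and 63 of 14710 unchanged genes were called. With a simulated biological coefficient of variation of 0.2, it held that ratio for 40.2% of genes. In that case 491 of 14769 unchanged genes were called. Tables and plots used Python 3.11.15, pandas 2.3.3 and matplotlib 3.10.9.

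Named genes were the target and the genes the study names, members of the gene lists reported, the genes called over both days, and the top called genes in each direction by ratio, by counts against at most 3, by CPM difference and by ratio among genes flat in shControl. Members and lists were chosen with earlier results of these data known. Alternatives changed the scaling, the count minimum, the fold, the interval, the assumed dispersion, the prior count, the depth and the gene types. A check of promoter CpG content was void, since promoter sequences matched under 80% of the called genes. Some genes that meet these rules are not reported here.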

Additional observations from a re-analysis of the deposited data

Results flagged for a closer look

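The ratio of shMLL1 over shControl was called in opposite directions at day 0 and day 7 for 14 of the genes in the lists and rankings described. Each day had 1 library a line, so the difference between the days was not tested. The values here are the day 7 log2 ratio minus the day 0 log2 ratio.

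Lower at day 0 and higher at day 7 were Penk, with a difference of 7.61, the carboxylesterase gene Ces1d, with 6.54, Sned1, with 4.86, Megf9, with 3.79, and the ephrin receptor gene Epha4, with 3.37. Penk went from 404 counts in shControl and 92 in shMLL1 at day 0 to 44 and 1661 at day 7. Ces1d went from 41 and 6 counts to 44 and 518, and belongs to a cluster of close paralogs.

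Higher at day 0 and lower at day 7 were the chemokine genes Ccl2, with a difference of -4.45, and Cxcl1, with -4.10. The signalling inhibitor gene Spry1 had -4.60 and the lipid carrier gene Apoe -3.71. Skil, a repressor of TGF-β signalling, had -2.24, the AP-1 subunit gene Fosl1 -2.60 and the glutathione-degrading enzyme gene Chac1 -3.31. The paralogous glutathione S-transferase genes Gsta1 and Gsta2 had -6.10 and -5.87, with 2 counts each in shMLL1 at day 7.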

How the results depend on the processing

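At day 7 the counts of 946 genes higher and 808 lower came to 1538 higher with no count minimum, 586 higher at 50 or more counts and 601 higher among protein-coding genes alone, with the lower count within 1.5 times of 808 each time. Requiring the whole interval past 2-fold gave 452 and 431, a fold over 4 gave 276 and 249, and an edgeR exact test gave 430 and 408 with an assumed biological coefficient of variation of 0.2 and 59 and 59 with 0.4, so the calls rest on how much cultures vary, which 1 library a group cannot measure. DESeq2 size factors, library size alone, fold alone, a prior count of 2, an assumed variation of 0.1 and thinning shControl to the shMLL1 depth kept both counts within 1.5 times. Over both days, 2 higher and 3 lower became 236 and 290 with no filter, 90 and 109 with the 4 libraries of the 2 lines, 0 and 0 with no day term (157 and 180 at an unadjusted p under 0.05, edgeR) and 182 and 244 with the DESeq2 Wald test. Leaving out 1 library at a time gave 10 to 375 higher and 32 to 345 lower, the lowest without shControl at day 7 and the highest without shMLL1 at day 7. The cause of these shifts was not tested. The gene-level alternatives were run for 84 measured genes: those the study names, the top-ranked ones and those called over both days. Other list members, such as Scd1 near the 2-fold limit, were not run. None of the 84 reversed. With library size alone 3 of them, Pparg, Ftl1 and C3, lost their calls, at -0.90, -0.92 and -0.999. Of these 84 genes, 7 lost their calls at an assumed variation of 0.2, 39 at 0.4 and 20 at a fold over 4. With the whole interval past 2-fold 1 of them, Pparg, lost its call. The fit over both days gave a variation of 0.281. That fit counts line differences that depend on the day as error, so this value does not measure variation between cultures. No paired analysis was possible because each line had 1 library at day 7 and the labels give no shared replicate numbers; the test over both days sets the lines against each other within each day through its day term, and its counts without that term are given above. Depth limits genes of low abundance, which held the largest share of calls.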
